A study of Mus musculus with 2 samples.

Results

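The genes described here encode the machinery that imports proteins into mitochondria, and the data are the sites occupied by the transcription factor NRF1 in mouse skeletal muscle. The members were chosen by symbol. They are the protein-coding RefSeq genes whose symbol begins with Timm or Tomm followed by a digit, together with Pam16, Dnajc19, Grpel1, Grpel2, Hspa9, Hspd1, Hspe1, Samm50, Mtx1, Mtx2, Chchd4, Gfer, Pmpca and Pmpcb. This gave 39 genes of the 21000 protein-coding genes examined. NRF1 chromatin immunoprecipitation and sequencing (ChIP-seq), in which an antibody pulls down a protein with the DNA it occupies, was performed on nuclear extracts of skeletal muscle to place NRF1 relative to the glucocorticoid receptor and LSD1. The labels describe 2 libraries from wild-type muscle, both with the NRF1 antibody and in 1 group, with no strain, age or treatment, and the mice of the study were male. In the study's reporting summary the second of them is input DNA, against its label. A single list of 3226 peaks was analysed, so no value below has a replicate error. The list does not give read depth, and a promoter without a peak cannot be told from one whose signal fell under the threshold. Whole muscle also holds nuclei other than those of myofibers, and the list does not separate them.

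Most mitochondrial proteins are encoded in the nucleus, made in the cytosol and imported. The TOM complex of the outer membrane receives precursors and passes them through its channel. From there the TIM23 complex moves proteins with a presequence into the matrix, drawn by a motor built on the chaperone encoded by Hspa9, while the TIM22 complex inserts carrier proteins into the inner membrane with the help of small TIM chaperones. Other branches insert barrel proteins into the outer membrane (Samm50 and the metaxins), fold cysteine-rich proteins of the intermembrane space (Chchd4 and Gfer) and remove presequences (Pmpca and Pmpcb). NRF1 is known as an activator of nuclear genes for mitochondrial proteins, and it binds as a dimer to a GC-rich palindrome, GCGCATGCGC. Muscle fibers are rich in mitochondria, whose upkeep depends on this import.

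The sequences near the summits show which form of this palindrome the peaks of the import genes hold. Each is read 5′ to 3′ on the strand named from the mm10 genome (RefSeq, GRCm38), with the copy nearest to the palindrome in capitals. The 6 genes shown first are those of highest fold enrichment among the members whose peak holds a copy, except that Timm21, which ranks between Timm8b and Pam16, is left out because sequence of its chromosome is not printed here. Timm29 is added because its peak, the highest by fold enrichment next to an import gene, lies just past the promoter window. The peak at Hspd1 and Hspe1 is shown whole (267 bases), because it is the 1 peak that lies at the starts of a pair of import genes.
Chchd4, chr6:91473585-91473644, minus strand: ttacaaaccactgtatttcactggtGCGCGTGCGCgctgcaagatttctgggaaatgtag
Tomm7, chr5:23844122-23844181, minus strand: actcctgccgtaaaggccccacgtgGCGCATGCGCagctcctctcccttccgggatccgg
Tomm20, chr8:126945907-126945966, minus strand: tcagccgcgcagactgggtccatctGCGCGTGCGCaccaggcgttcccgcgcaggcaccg
Timm8b, chr9:50603894-50603953, plus strand: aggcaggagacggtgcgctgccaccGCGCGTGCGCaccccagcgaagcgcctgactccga
Pam16, chr16:4624927-4624986, minus strand: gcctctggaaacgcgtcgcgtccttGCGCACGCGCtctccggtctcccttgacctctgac
Timm13, chr10:80901129-80901188, minus strand: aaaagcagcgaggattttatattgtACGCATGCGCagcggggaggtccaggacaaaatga
Timm29, chr9:21592852-21592911, plus strand: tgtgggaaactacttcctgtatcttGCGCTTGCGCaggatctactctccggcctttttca
Hspd1 and Hspe1, chr1:55088147-55088413, plus strand: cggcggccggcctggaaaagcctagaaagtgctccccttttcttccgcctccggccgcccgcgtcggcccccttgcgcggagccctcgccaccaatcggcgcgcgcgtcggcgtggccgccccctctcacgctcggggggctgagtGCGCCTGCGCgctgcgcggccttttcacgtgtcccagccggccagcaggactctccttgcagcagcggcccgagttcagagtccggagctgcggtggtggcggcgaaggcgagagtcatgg

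Tomm7 carried the palindrome unaltered, and each of the other sequences departed from it at 1 base. With positions counted from 1 at the 5′ end of the copy on the strand of the gene, the change was A5G in Chchd4, Tomm20 and Timm8b, T6C in Pam16, G1A in Timm13 and A5T in Timm29. The changes in Chchd4, Tomm20, Timm8b, Pam16 and Timm29 thus fell on the 2 central bases, and both half-sites TGCGC, which face each other in the palindrome, kept their outer letters. The words GCGCGTGCGC and GCGCACGCGC are reverse complements of each other, so Pam16 holds the same site as Chchd4, Tomm20 and Timm8b on the opposite strand. That site was found within 100 bp of the summit at 432 of all 2607 promoter peaks (16.6%), and the unaltered palindrome at 285 (10.9%).

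NRF1 peaks were found at the promoters of 12 of the 39 import genes, a share of 30.8% (Wilson 95% interval 18.6 to 46.4%, counting error only). A gene was counted where the summit of a peak, its highest point, lay in the window that runs from 1000 bp upstream to 100 bp downstream of a transcription start. Of all protein-coding genes, 2808 had such a summit, which is 13.4%. Import genes mostly start in CpG-rich sequence, and such genes had NRF1 peaks more often in general. Taking only genes with a CpG-rich start, 11 of 34 import genes (32.4%, interval 19.1 to 49.2%) and 23.1% of all genes had a promoter peak, so the interval of the import genes included the share of all CpG-rich genes. Occupied import genes belonged to 5 of the 7 functional groups, and Chchd4, Tomm7, Hspa9, Tomm20 and Timm8b had the highest enrichments.

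**Figure D1:**
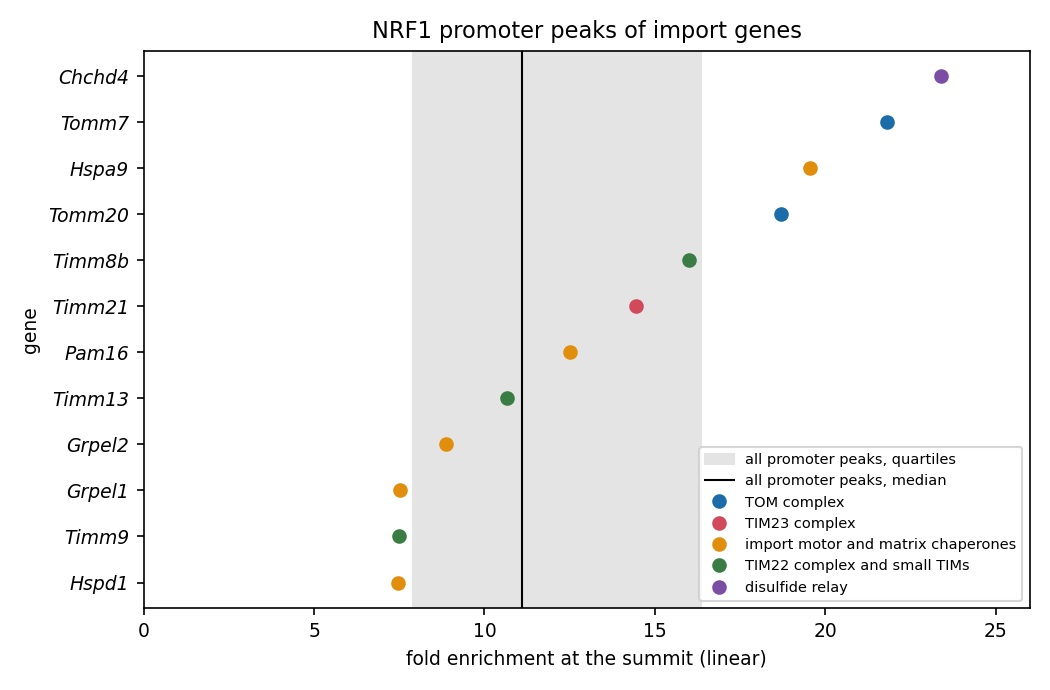
Fold enrichment over the control background at the summit of the promoter peak (horizontal axis, linear) of each of the 12 import genes with one, coloured by functional group, with no replicate error. The black line is the median of all 2607 promoter peaks and the grey band their quartiles, and 7 of the 12 genes lie to the right of the line.

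Fold enrichment compares the signal at the summit with the control background, as a linear ratio. At the 12 import gene peaks its median was 13.5 (quartiles 8.53 and 18.9, range 7.47 to 23.4), against a median of 11.1 over all promoter peaks (quartiles 7.90 and 16.4, range 3.01 to 49.9). The 95% interval of the import gene median, from the ranks of the 12 values, was 7.51 to 19.6 and included 11.1. Of the 12 peaks, 7 were above that median. Chchd4, Tomm7, Hspa9 and Tomm20 were above the upper quartile of all promoter peaks, and Grpel1, Timm9 and Hspd1 were below the lower one. The −log10 q had a median of 35.0 at import genes (range 9.57 to 101) and 25.3 at all promoter peaks. Median peak width was 357 bp (range 229 to 700 bp) and 296 bp, respectively.

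Among the 10 genes named for the TOM complex, Tomm7 and Tomm20 had a promoter peak. Tomm7, a small subunit that acts in assembly of the complex, had a fold enrichment of 21.8 with a −log10 q of 64.0 at a peak spanning chr5:23843998-23844372. Its summit was 4 bp before the start, 2.5 bp from the centre of the palindrome. Tomm20, a receptor for presequences, had a fold enrichment of 18.7 with a −log10 q of 56.6 at chr8:126945807-126946069. There the summit was 15 bp before the start and 0.5 bp from the centre of the copy, the closest fit of summit and copy among the import genes. Among all promoter peaks, Tomm7 was at the 90.8th and Tomm20 at the 83.9th percentile of fold enrichment. The other 8 genes had no promoter peak. They include the channel gene Tomm40, the receptors Tomm22 and Tomm70a and the small subunits Tomm5 and Tomm6, as well as Tomm34, Tomm20l and Tomm40l. The nearest summit to any of these 8 lay 6602 bp before the start of Tomm6, with a fold enrichment of 3.98, and for Tomm22 the distance was 11699 bp.

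The TIM23 complex had a peak at 1 of 6 genes. This was Timm21, whose product links the complex with TOM, and not the channel genes Timm23, Timm17a and Timm17b, the receptor gene Timm50 or Timm44, which anchors the motor. The Timm21 peak on chromosome 18 (84951499 to 84952198) was the widest of the 12, at 700 bp, and had a fold enrichment of 14.5 with a −log10 q of 45.8. Its summit was 185 bp before the start. The promoter held 3 copies of the motif at 1 mismatch or fewer, centred at −155.5, −521.5 and −549.5 bp from the start, and the first of these lay 29.5 bp from the summit. Timm21 was also the only counted import gene without a CpG-rich start, with a GC content of 47.4%. For the other 5 genes the nearest summits were 19113 bp (Timm17b) to 116757 bp (Timm17a) away.

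The motor and matrix chaperones had the most occupied genes, 5 of 7, namely Hspa9, Pam16, Grpel2, Grpel1 and Hspd1. Beside this and the counts of the other groups, 13.4% of all protein-coding genes had a promoter peak. Among those with a CpG-rich start the share was 23.1%. The groups were chosen with earlier results of these data known, and differences between them were not tested. Fold enrichments at these 5 genes spanned from 7.47 to 19.6 with a median of 8.87. Of the 5, 3 lay below the median of all promoter peaks. Hspa9, the central chaperone of the motor, had the highest, 19.6, with a −log10 q of 53.3 at chromosome 18 (34954580 to 34954879). Its summit was 350 bp before the start, and no copy with at most 1 mismatch was found within 100 bp of it. Pam16, which holds the J-protein of the motor in check, had a fold enrichment of 12.5 with a −log10 q of 33.6 at chr16:4624710-4625126. The Pam16 summit was 14 bp before the start and 3.5 bp from the centre of its copy.

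The 2 nucleotide exchange factors that recycle this chaperone both had peaks of modest height. Grpel2 had a fold enrichment of 8.87 with a −log10 q of 17.1 at chromosome 18 (61726206 to 61726434), the narrowest of the 12 peaks at 229 bp. Its summit lay 4 bp downstream of the start, in transcribed but untranslated sequence, and it too had no copy with at most 1 mismatch. Grpel1 had a fold enrichment of 7.51 with a −log10 q of 11.3 at chr5:36465014-36465269, with a summit 39 bp before the start. Its copy was GCGCATGCTC, with the change G9T, a form found at 114 promoter peaks (4.37%). Dnajc19, which encodes the J-protein that stimulates the chaperone, was the import gene farthest from any NRF1 summit, at 1570789 bp.

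Hspd1 and Hspe1 encode the matrix chaperonin and its co-chaperonin, which fold imported proteins, and they share 1 peak. The genes are transcribed in opposite directions from starts 95 bp apart, with Hspd1 on the minus and Hspe1 on the plus strand, and their 5′ ends overlap. The peak had the lowest fold enrichment of the 12, 7.47, with a −log10 q of 18.8, and its summit was 36 bp before the nearer start of Hspd1 and 131 bp after the start of Hspe1. Hspe1 was therefore not counted, by 31 bp. The copy in the sequence of this peak, printed above, differs from the palindrome by A5C as printed, and by T6G when read on the strand of Hspd1. Read that way it is GCGCAGGCGC, which of the forms at import genes was present at the most promoter peaks (610 peaks, 23.4% of all promoter peaks, median fold enrichment 13.7). Its centre was 18.5 bp from the summit.

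The TIM22 complex and the small TIMs had peaks at 3 of 9 genes, Timm8b, Timm13 and Timm9, which all encode small chaperones of the intermembrane space. Timm8b had a fold enrichment of 16.0 with a −log10 q of 36.4 at chr9:50603772-50604132, with a summit 38 bp downstream of the start in untranslated exon sequence. Timm13 had a fold enrichment of 10.7 with a −log10 q of 32.8 at chr10:80900882-80901280, with a summit 159 bp before the start. At Timm9, the fold enrichment was 7.49 with a −log10 q of 9.57, the highest q-value of the 12, at chr12:71136986-71137338. The summit at Timm9 was the farthest from its start, 430 bp before it, and the copy, centred at −490.5 bp from the start, was also the farthest from its summit, at 60.5 bp. Timm9 and Timm13 carried the same form of the motif, ACGCATGCGC, which was present at 183 promoter peaks (7.02%). Timm8a1, Timm8a2, Timm10, Timm10b and the channel gene Timm22 had no summit nearer than 31989 bp.

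Timm29, a subunit of the TIM22 complex, was not counted although the fold enrichment of its peak was above that of any counted member. The peak at chr9:21592528-21593105 had a fold enrichment of 25.7 with a −log10 q of 89.1, which would place it at the 94.8th percentile of promoter peaks by fold enrichment. By −log10 q it was below the peak of Chchd4 (101). Its summit was 143 bp after the start of Timm29, 43 bp beyond the window, and it fell in the promoter of Yipf2, which starts 109 bp away on the opposite strand. Copies of the motif were centred 45.5 and 159.5 bp after the Timm29 start, and the latter, printed above, was 16.5 bp from the summit. Hspe1 and Timm29 were the only uncounted members with a summit within 500 bp, and both peaks overlapped the promoter window.

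**Figure D2:**
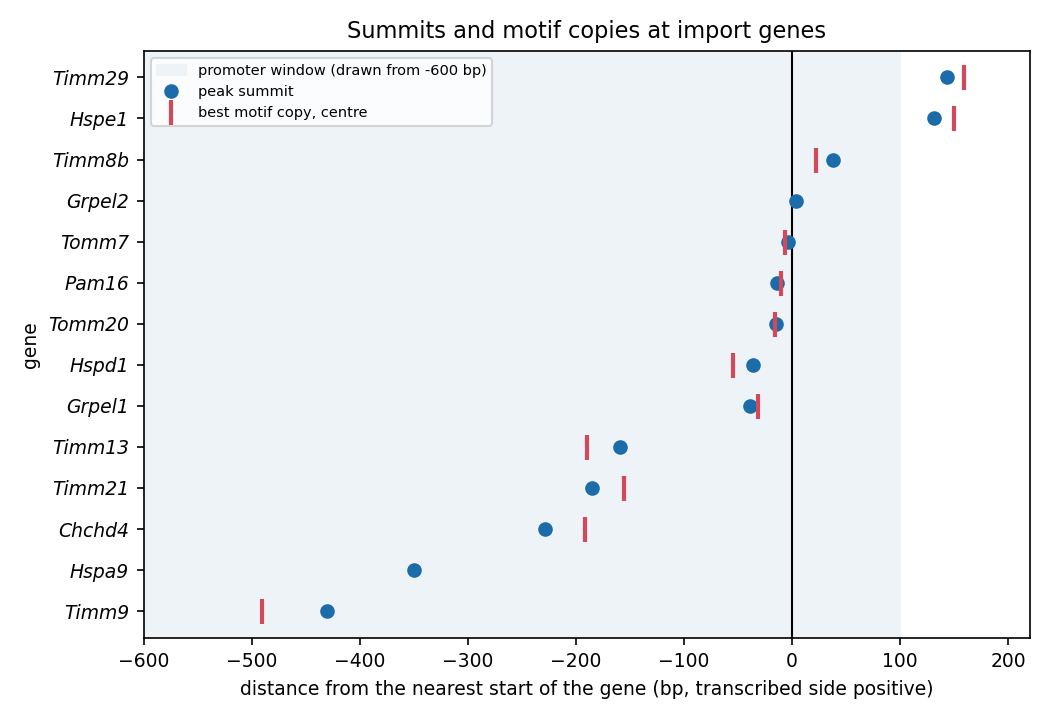
Position of the peak summit (blue points) and of the centre of the best motif copy within 100 bp of it (red bars), in bp from the nearest transcription start, for the 12 import genes with a promoter peak and for Hspe1 and Timm29. The shaded area is the promoter window, drawn in part, and the summits of Hspe1 and Timm29 lie 31 and 43 bp to its right, whereas Hspa9 and Grpel2 have no bar.

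Chchd4, the oxidoreductase that introduces disulfide bonds into imported proteins, had the highest fold enrichment of the counted members, 23.4, with a −log10 q of 101 at chr6:91473376-91473827. The summit was 229 bp before the start and lay between 2 copies of the same form of the motif, centred at −191.5 and −280.5 bp from the start. Gfer, the oxidase that reoxidises it, had no promoter peak, and its nearest summit was 23814 bp before the start with a fold enrichment of 4.89. None of the 3 outer membrane sorting genes had a peak, with nearest summits at 32543 bp for Mtx1, 597063 bp for Samm50 and 914519 bp for Mtx2. Neither subunit of the processing peptidase had one, at 56549 bp for Pmpca and 855001 bp for Pmpcb. Over the 27 members without a promoter peak, the nearest summit was a median of 45661 bp away (quartiles 28833 and 202090 bp), and Hspe1, Timm29 and Tomm6 were the 3 with a summit within 10000 bp.

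Several occupied import genes shared their peak with a neighbour that is transcribed in the opposite direction. Of the 12 peaks, 3 (25%, interval 8.89 to 53.2%) also lay in the promoter of another protein-coding gene. Among all peaks in the promoter of a protein-coding gene the share was 12.1% (308 of 2556), which the interval included. Timm8b was paired with Sdhd, a subunit of respiratory complex II, with starts 52 bp apart. Chchd4 was paired with Tmem43, 284 bp apart, and Timm21 with Fbxo15, 592 bp apart. The peaks of Grpel1 and Grpel2 lay in the promoters of the non-coding transcripts 2210406O10Rik and 1500015A07Rik as well, with starts 331 and 59 bp apart. For non-coding neighbours no share over all promoter peaks was counted. At all of these shared peaks the list does not tell which of the neighbours the occupancy belongs to.

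The median position of the summit at import genes was −37.5 bp from the start, with quartiles of −196 and −11.5 bp. For all protein-coding genes with a promoter peak the median was −59 bp and the quartiles −132 and −12 bp. The 95% interval of the import gene median, from ranks, was −229 to −4 bp and included −59 bp. Of the 12 summits, those of Timm8b and Grpel2 were after the start and the others before it. Chchd4, Hspa9, Timm9, Timm13 and Timm21 had summits more than 100 bp upstream, and the remaining 7 lay from 4 to 39 bp from the start.

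A copy of the palindrome with at most 1 mismatch, on either strand, was present within 100 bp of the summit at 10 of the 12 import gene peaks (83.3%, interval 55.2 to 95.3%) and at 65.9% of all promoter peaks. Hspa9 and Grpel2 were the exceptions, and both had a copy with 2 mismatches. At the 10 peaks the centre of the copy was a median of 17 bp from the summit (range 0.5 to 60.5 bp). The unaltered palindrome was found at Tomm7 alone (8.33%), and at 10.9% of all promoter peaks. Median fold enrichment was 13.5 over the 10 import gene peaks with a copy, and Hspa9 (19.6) and Grpel2 (8.87) lay on either side of it. Over all promoter peaks the medians were 12.9 with a copy and 8.58 without.

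The motif was then searched in whole promoters, peaks aside. It was present in the promoters of 11 of the 39 import genes (28.2%, interval 16.5 to 43.8%) and of 12.1% of all protein-coding genes, while 1.75% of the latter held the unaltered palindrome. Of the 11 import genes with a copy, 10 had a summit in the promoter (90.9%, interval 62.3 to 98.4%), the exception being Timm29, and of all genes with a copy 75.4% did. Of the 28 import genes without a copy, Hspa9 and Grpel2 had a peak (7.14%), and of all genes without one 4.81% did. Among the members without a peak, only Timm29 therefore had a copy in its promoter, and none of Tomm40, Tomm22, Timm23, Timm50, Samm50 or Pmpcb had one.

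**Figure D3:**
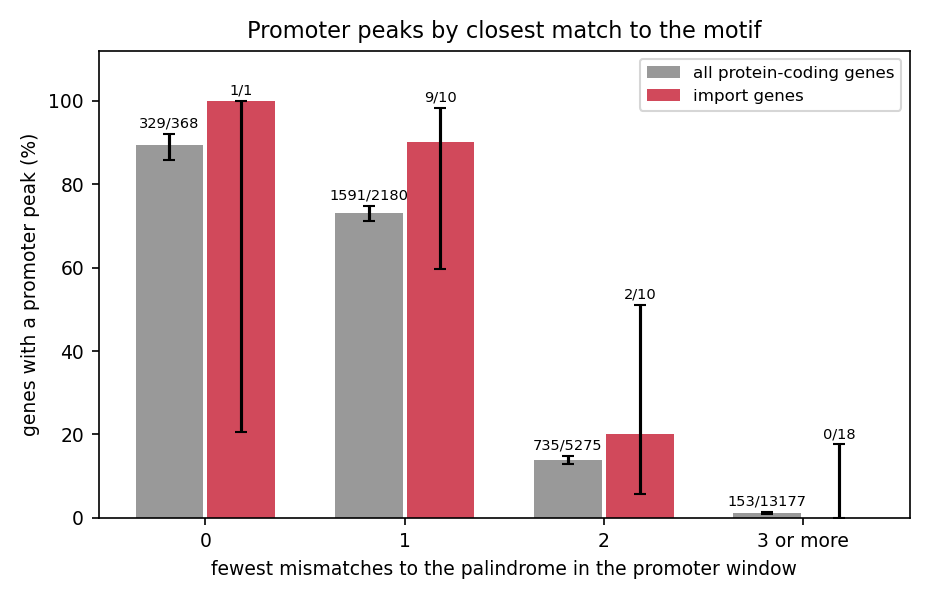
Share of genes with an NRF1 promoter peak (vertical axis, %) by the fewest mismatches to the palindrome anywhere in the promoter (horizontal axis), for all protein-coding genes (grey) and import genes (red), with Wilson 95% intervals and the counts above the bars. In both sets the share is high at 0 or 1 mismatch and low from 2 mismatches on, with no peak at the 18 import genes at 3 or more.

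Sorted by the closest match in the promoter, the share of all genes with a peak was 89.4% at 0 mismatches, 73.0% at 1, 13.9% at 2 and 1.16% at 3 or more. Import genes followed the same order, with 1 of 1, 9 of 10, 2 of 10 (20.0%, interval 5.67 to 51.0%) and 0 of 18 genes, the last of which allows a share of up to 17.6%. The 8 import genes with a closest match at 2 mismatches and no counted peak were Tomm20l, Tomm40, Tomm40l, Timm17b, Timm23, Timm50, Hspe1 and Pmpca. A match to these letters is a description of the sequence and not evidence of binding, and promoters without one may hold other forms.

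Base composition overlapped between import genes with and without a promoter peak. Within 200 bp of the start, median GC content was 61.7% at members with a peak and 64.6% at members without, and the median ratio of observed to expected CpG was 0.870 and 0.786. The 2 sets overlapped on both measures, with GC contents from 47.4 to 76.8% and from 54.4 to 79.8%. Across all genes GC content went the other way, at 66.3% with a peak and 58.6% without, while the CpG ratio was again higher with a peak, at 0.892 against 0.594. A start was called CpG-rich at a GC content of at least 50% and a CpG ratio of at least 0.6. By this measure 34 of the 39 import genes were CpG-rich (87.2%), against 55.1% of all genes. The other 5 were Timm21, Timm8a2, Tomm40l, Tomm5 and Tomm6, with Tomm5 just under the limit at a ratio of 0.597, and of the 27 members without a promoter peak 23 were CpG-rich.

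**Figure D4:**
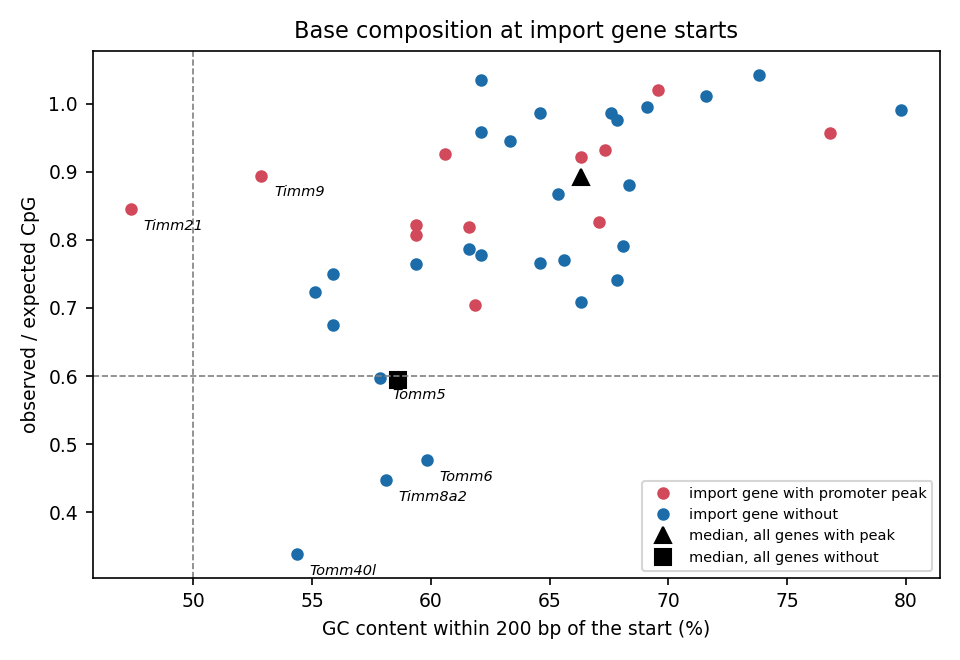
GC content (horizontal axis, %) and observed/expected CpG (vertical axis, ratio) within 200 bp of the start of each of the 39 import genes, with a promoter peak in red and without in blue, and the medians of all genes in black. Dashed lines mark the limits for a CpG-rich start. Red and blue points are intermingled above the limits, and 4 of the 5 genes outside them have no peak.

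Other genes of the import pathway that the symbol rule leaves out were examined from a list of 18, covering proteases, insertases, chaperones and further subunits. A promoter peak was found at 5 of them (27.8%, interval 12.5 to 50.9%), beside 13.4% of all genes, a share within that interval. All but Mtx3 have a CpG-rich start, and of these 17 the 5 are 29.4% (interval 13.3 to 53.1%), beside 23.1% of all CpG-rich genes. Clpx, the unfoldase of a matrix protease, had a fold enrichment of 24.7 and Aifm1, which acts with Chchd4, one of 23.0. Dnaja3, a J-protein of the matrix, had 15.5, and Oxa1l, the insertase of the inner membrane, 11.9. The weakest was Yme1l1, a protease of the inner membrane, at 5.68, with a summit 550 bp before the start that is shared with Mastl and has no copy of the motif. Romo1, a subunit of the TIM23 complex, had a copy in its promoter and no peak, the nearest summit being 32160 bp away. Afg3l2, Clpp, Dnajc15, Dnlz, Immp1l, Immp2l, Lonp1, Mipep, Mtx3, Pitrm1, Trap1 and Xpnpep3 had no promoter peak.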

How the data were processed

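NRF1 ChIP-seq peaks of wild-type skeletal muscle were deposited as 1 list. As the study describes it, the authors aligned single-end reads with Bowtie to mm10, the build named in the submitters' processing notes, kept unique reads, removed blacklisted regions (the blacklist named is for a human build) and called peaks with MACS2 against input. For NRF1 the reporting summary lists 1 antibody library and 1 input. All peak names carry the title of the first library and a word for duplicate removal. The methods mention broad peaks, whereas the list has the narrow layout with summits. They also set a false discovery rate limit of 0.01, which 7 of the 3226 listed peaks exceed, none of them at a member promoter. The length of the list differs from the site count in the study's text, so it may be another version of the list. The fold enrichments deposited by the authors are linear ratios of summit signal to control background, and their deposited q-values are on the −log10 scale. Thin local coverage of the control can raise a fold, and duplicate removal limits the strongest sites.

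From this list, summits were placed relative to the starts of 45756 known RefSeq transcripts of GRCm38, the assembly of mm10, with 1101 bp promoters. Copies of the palindrome with at most 1 mismatch were searched on both strands within 100 bp of summits. Sequences are from RefSeq, and all 39 members were matched by symbol. Wilson 95% intervals of shares, and the intervals of medians from ranks, cover counting error over genes or peaks only, and neighbouring genes and paralogs are not independent. With 1 group and 1 list no test between groups was made. All members were accounted for, those with a peak being named with their values and the others with distances or counts. Members, functional groups and the list of 18 other genes were chosen with earlier results of these data known, and the sequences shown were ranked by fold enrichment, with the exceptions named where they are printed (Timm21 left out, Timm29 and the Hspd1 peak added). Scripts used Python 3.11.15, pandas 2.3.3, numpy 2.4.6 and statsmodels 0.14.6. The count of mismatches was tested on motif copies planted in random sequence, whereas the placement of summits was not tested in this way. Alternatives concerned the threshold, window, transcripts, motif and background.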

Additional observations from a re-analysis of the deposited data

How the results depend on the processing

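Of 28 alternatives, 25 left their result within the limits set (1.5 times for a count). Among the 25 are those with a stricter limit on q or a fold enrichment of at least 5. All 12 import gene peaks passed both limits, with a lowest −log10 q of 9.57 and a lowest fold enrichment of 7.47. These alternatives therefore could not move a result, and their agreement says nothing about stability. The count of import genes with a promoter peak ranged from 12 to 14, and Hspe1 and Timm29 were the genes gained, under any overlap of peak and promoter and under both other windows, with none lost. The share of all protein-coding genes was not counted under these rules, so the count of 14 has no background beside it. Median fold enrichment ranged from 13.5 to 14.5, and the median summit position from −37.5 to −25.5 bp relative to the start. The share of import gene peaks with the motif, 83.3%, moved to 8.33% with no mismatch and to 100% with at most 2 mismatches, where all promoter peaks gave 10.9% and 91.0%, since the allowance decides what is a copy. With only CpG-rich starts the background share moved from 13.4% to 23.1%, since other genes were removed. No paired analysis was possible because only 1 peak list and 1 group are at hand, which is also why no replicate could be left out. Unknown depth limits each count of genes without a peak.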
